A study of Homo sapiens with 6 samples.

Results

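The 2 mitochondrial rRNA genes, MT-RNR1 (chromosome MT, positions 648 to 1601 on GRCh38) and MT-RNR2 (positions 1671 to 3229), were followed base by base in poly(A)-selected RNA of HEK-293T cells. They were chosen by their annotated coordinates, without use of any measured value. MT-RNR1 spans 954 bases and MT-RNR2 1559 bases, together 2513 of the 16569 bases of the mitochondrial chromosome (15.2%). HEK-293T is an immortal line from human embryonic kidney in which the viral large T antigen is expressed. The 3 wild-type (WT) libraries came from cells given a non-targeting guide RNA. The 3 libraries labelled knockout, called KO below after their label, came from cells given a CRISPR/Cas9 guide against C17orf80. The culture medium was the same for both groups, and puromycin was used to select monoclonal cells. The sources used here give neither the number of clones behind each group nor whether its libraries are separate cultures. A p-value below is thus about the spread among these 6 libraries, and clone and guide cannot be told apart.

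MT-RNR1 encodes the rRNA of the small subunit of the mitochondrial ribosome and MT-RNR2 that of the large subunit. Both are transcribed early in the long heavy-strand unit, where the tRNA genes MT-TF, MT-TV and MT-TL1 stand before, between and after them. One long precursor RNA is made, and the tRNAs are cut out of it by RNase P at their 5′ ends and by ELAC2 at their 3′ ends, which frees the rRNAs. Mature mitochondrial rRNAs carry no tail or a short one, so a poly(A)-selected library holds only the rRNA molecules that the selection retained. The series title asks how loss of C17orf80 affects transcription of mitochondrial DNA.

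Coverage is given per base in the deposited units, which had been scaled by a factor for each library. Errors after ± are SD over n = 3 libraries for levels and standard errors for log2 differences, which are KO over WT. KO replicate 1 stood apart from its group. On log2 CPM its genes had a Pearson's r of 0.932 and 0.945 with the other KO libraries, which had one of 0.987 with each other. Reads in no annotated feature made up 15.9% of its counted reads, against 8.75% to 10.8% in the other 5 libraries. The main results below are therefore given by library or with and without it. The C17orf80 transcript was not lower in the libraries labelled knockout, at 27.3 ± 1.72 CPM in WT and 46.9 ± 8.22 CPM in KO (log2 fold change 0.78 ± 0.17, edgeR adjusted p = 0.0232). This call was lost without any 1 WT library (edgeR adjusted p from 0.0999 to 0.127) and without KO replicate 3 (0.0549), while the direction stayed. Gene counts do not test whether the protein was lost. Of genes typical of the line, VIM, NEFM and KRT8 were detected in each library, and LHX1 stayed at 0.676 CPM or less. Of the 15 markers listed, the renal factor PAX2 was lower in each KO library without passing the test (9.43, 8.08 and 9.25 CPM in WT, 3.70, 6.92 and 5.95 CPM in KO, log2 fold change -0.69, edgeR adjusted p = 0.1202). NEFL (195 ± 5.69 CPM in WT, 69.9 ± 13.5 CPM in KO) and the fibroblast collagen COL1A1 (43.1 ± 3.39 and 24.4 ± 5.63 CPM) were called lower in KO, and the neuronal filament gene INA had 0 counts in WT and 27.5 ± 5.60 CPM in KO. The part of these shifts in the results below was not tested. The blood marker PTPRC and the tubule marker UMOD had 0 counts in all 6 libraries.

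Both rRNA genes had higher mean coverage in each KO library than in each WT library, and most of the difference in the means came from KO replicate 1. The neighbours MT-TL1 and MT-ND1 were also without overlap, while MT-TF and MT-TV overlapped. The share of all 38 regions of the chromosome without overlap was not counted. Mean coverage of the whole chromosome was 476, 500 and 517 in WT and 1010, 489 and 558 in KO, so KO replicate 1 was high there too. MT-RNR1 stood at 62.3, 62.0 and 62.6 in WT replicates 1 to 3 and at 254, 85.1 and 92.1 in KO replicates 1 to 3. MT-RNR2 stood at 200.4, 199.1 and 199.998 in WT and at 1026, 258 and 286 in KO. The WT libraries were nearly alike, with SDs of 0.332 for MT-RNR1 and 0.659 for MT-RNR2, whereas KO replicate 1 stood far above the other KO libraries. The log2 difference was 1.003 ± 0.55 for MT-RNR1 and 1.08 ± 0.48 for MT-RNR2. Neither passed limma over the 38 regions of the chromosome (adjusted p = 0.301 for both), where 0% of regions were called higher. Without KO replicate 1 the log2 differences were 0.50 and 0.44 (limma adjusted p = 0.0966 and 0.0704), and 7.89% of regions were called higher and 2.63% lower.

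**Figure D1:**
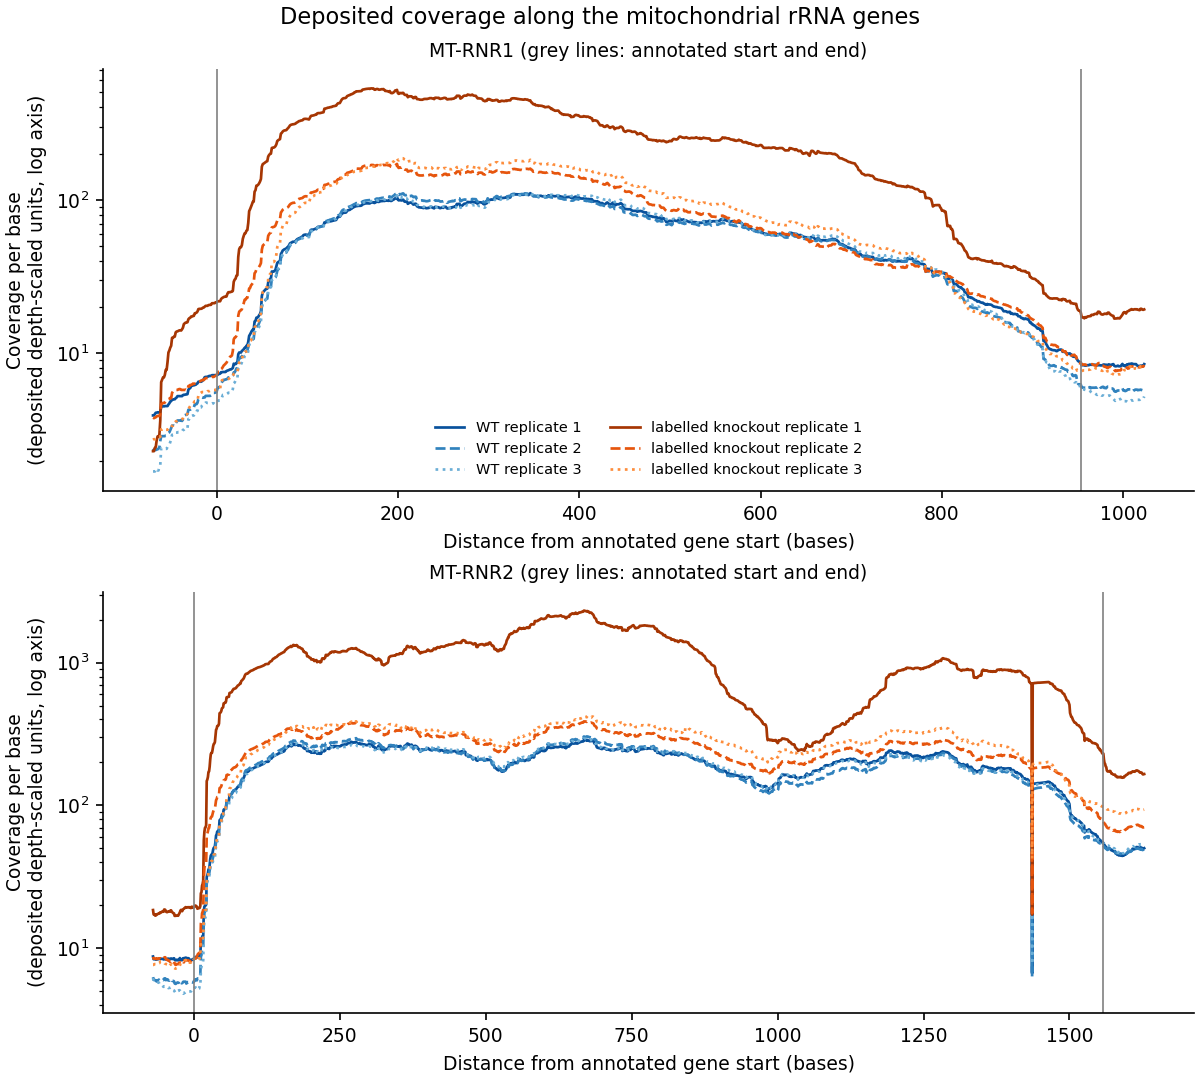
Deposited coverage per base (log axis) against distance in bases from the annotated start of MT-RNR1 (top) and MT-RNR2 (bottom), with 70 bases of flank on each side and 1 line per library. KO replicate 1 runs above the other libraries inside both genes, KO replicates 2 and 3 run above WT in most of MT-RNR2 but meet the WT lines in the last part of MT-RNR1, and a single base of MT-RNR2 drops in all 6 libraries.

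Along MT-RNR1 the higher coverage of KO replicates 2 and 3 was a feature of the 5′ part of the gene. In the window of positions 801 to 900, coverage was 94.1, 101 and 96.1 in WT and 489, 157 and 168 in KO, so that all KO libraries lay above all WT libraries. In the window of positions 1401 to 1500 it was 31.4, 29.5 and 31.3 in WT and 79.3, 31.3 and 30.9 in KO. There KO replicates 2 and 3 lay within the WT range and KO replicate 1 alone was higher. Windows of 100 bp were assigned to a gene by their middle, so the first of MT-RNR1, from 601 to 700, also holds bases of MT-TF. Of the 10 windows of MT-RNR1, this first one and the last 3, from 1301 to 1600, overlapped between the groups. The 6 between them did not. The share of all windows without overlap was not counted. By base, all KO libraries lay above all WT libraries at 40.9% of the chromosome. That share is in another unit, so whether the window count is unusual was not tested. None of the 10 was called by limma over all 166 windows of the chromosome, where 0% were called higher. At an unadjusted p under 0.05, limma had 3 of them higher and 0 lower, against 9.04% of all windows higher. Without KO replicate 1, 5 of the 10 were called higher, all between positions 701 and 1200. In that comparison 32.5% of all windows were called higher and 13.9% lower, so calls were common.

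In MT-RNR2 the difference ran along positions 1701 to 3200, the part covered by its windows. At the first base of the gene the groups overlapped, at 8.51, 5.88 and 5.24 in WT and 19.3, 8.40 and 8.39 in KO. All 15 windows had KO libraries above WT libraries without overlap. The share of such windows over the whole chromosome was not counted. The share by base, 40.9%, is in another unit, so whether the window count is unusual was not tested. Over all 6 libraries 0 of the 15 passed limma after adjustment and 4 had an unadjusted p under 0.05, against 9.04% of all windows. Without KO replicate 1 all 15 were called higher, against 32.5% of all windows, with log2 differences from 0.38 at positions 1801 to 1900 to 0.51 at positions 2601 to 2700. Counted by base, all 3 KO libraries lay above all 3 WT libraries at 582 of 954 bases of MT-RNR1 (61.0%) and at 1509 of 1559 bases of MT-RNR2 (96.8%), against 40.9% of the bases of the chromosome. All KO libraries lay below WT at 0 bases of either gene, against 0.555% of the chromosome. Neighbouring bases and windows share reads and are not independent.

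To compare shape apart from level, coverage was divided by the mean of the gene in the same library. Seen this way, MT-RNR1 was a single broad hill that rose over its first bases and sloped down to its 3′ end. In WT the hill carried crests at positions 838 to 844 and 981 to 1013 of a 51-base running mean, with a shallow dip at positions 894 to 896 between them. KO replicates 2 and 3 kept both crests and the dip, and KO replicate 1 had 1 crest, at position 825. The highest single base lay at positions 994, 847 and 994 in WT and at 819, 847 and 847 in KO. The highest coverage was 1.77, 1.79 and 1.77 times the gene mean in WT and 2.09, 2.01 and 2.02 times in KO. The KO peaks were thus taller relative to their gene in each library.

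**Figure D2:**
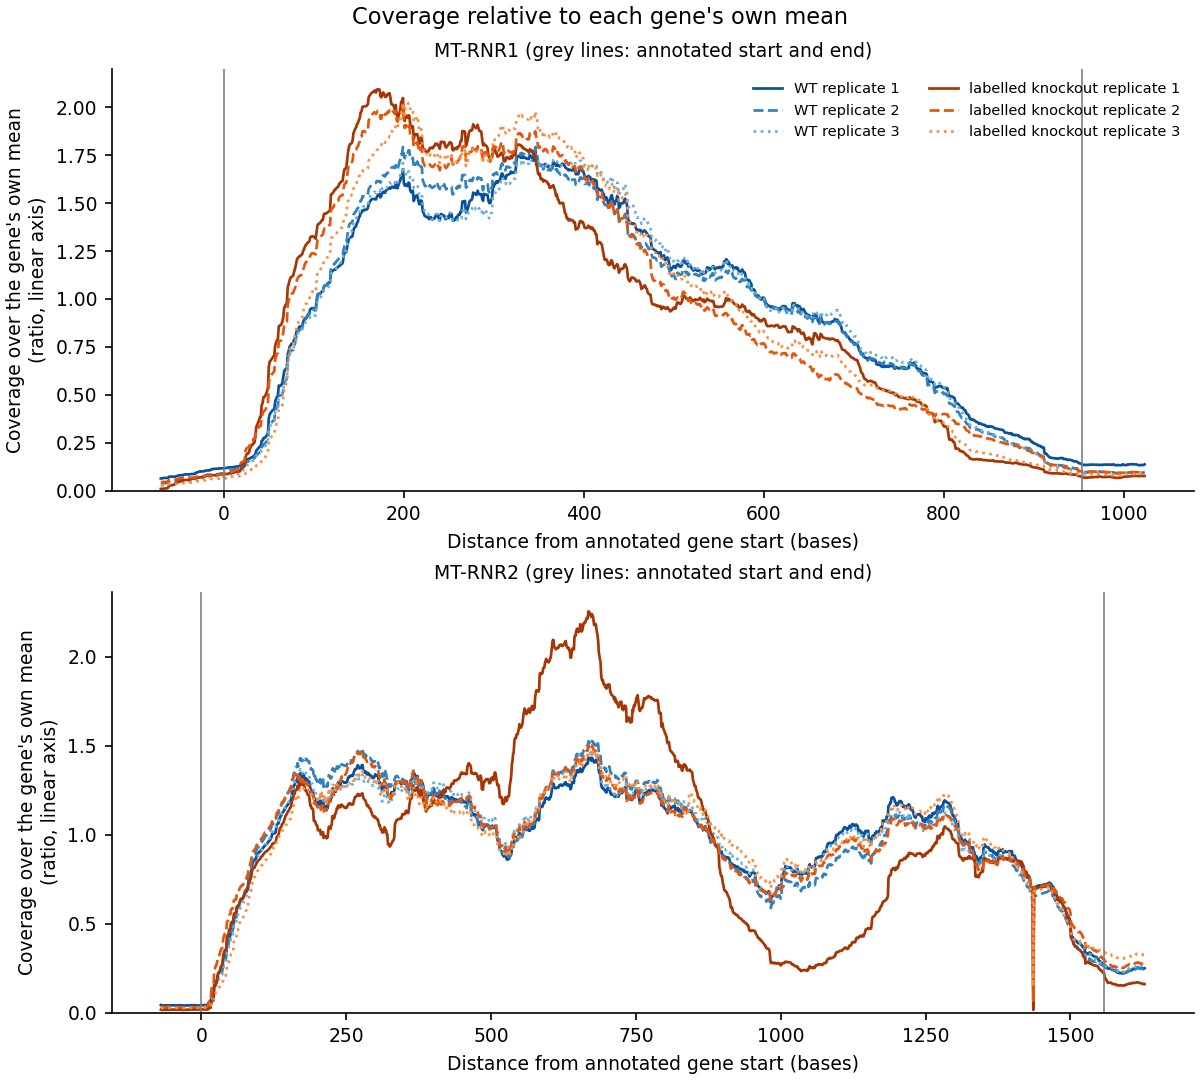
Coverage per base divided by the mean coverage of the gene in the same library (linear axis) against distance in bases from the annotated start, for MT-RNR1 (top) and MT-RNR2 (bottom), 1 line per library. In MT-RNR1 the KO lines run above WT in the 5′ part and below WT in the 3′ part; in MT-RNR2 KO replicate 1 departs from the other 5 libraries, which lie close together.

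Relative to its own mean, MT-RNR1 was weighted to the 5′ side in each KO library. The gene was split into 10 segments of equal length. In segment 2 (positions 743 to 838) relative coverage was 1.31, 1.36 and 1.32 in WT and 1.77, 1.68 and 1.504 in KO. Segment 3 (positions 839 to 933) had 1.49, 1.64 and 1.497 in WT and 1.85, 1.78 and 1.81 in KO. In segment 4 (positions 934 to 1029) the groups were closer, at 1.67 ± 0.0217 in WT and 1.78 ± 0.0840 in KO. These 3 segments lay above WT in all KO libraries. Segments 1 and 5 overlapped between the groups, since KO replicate 3 was below WT in segment 1 and KO replicates 2 and 3 were near WT in segment 5.

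The 5 segments of the 3′ part of MT-RNR1 lay below WT in all KO libraries. Segment 7 (positions 1220 to 1315) had relative coverage of 0.980, 0.963 and 0.974 in WT and 0.859, 0.718 and 0.791 in KO. In segment 8 (positions 1316 to 1410) the values were 0.732, 0.734 and 0.770 in WT and 0.618, 0.4999 and 0.580 in KO. Segment 9 (positions 1411 to 1506) had 0.478, 0.446 and 0.469 in WT and 0.285, 0.355 and 0.311 in KO. In each of these segments the highest KO library lay below the lowest WT library. In segment 10 (positions 1507 to 1601) the nearest libraries of the groups lay close together, at 0.227, 0.185 and 0.179 in WT and 0.114, 0.178 and 0.129 in KO.

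No segment of either rRNA gene passed limma over the 150 segments of the 15 rRNA and mRNA genes, where 0% were called in either direction. In MT-RNR1 the log2 differences were 0.31 ± 0.076 in segment 2 and 0.24 ± 0.060 in segment 3. They were -0.30 ± 0.087 in segment 7, -0.40 ± 0.10 in segment 8 and -0.56 ± 0.12 in segment 9 (limma adjusted p from 0.156 to 0.175 for these 5 segments). At an unadjusted p under 0.05, limma had 2 of the 10 MT-RNR1 segments higher and 5 lower, against 7.33% and 6.67% of all segments. Without overlap between the groups, 3 of the 10 were above and 5 below, against 12.7% and 16.7% of all segments. Such segments were not particular to MT-RNR1. MT-CO3 had 3 above and 4 below, with 2 higher and 3 lower at an unadjusted limma p under 0.05. MT-ND4 had 3 above and 3 below, while MT-ND2, MT-CO1 and MT-ND3 had 0 in either direction. Segments of 1 gene share its mean, so that a share gained on one side is lost on the other, and they are not independent. When KO replicate 1 was left out, 4.0% of segments were called higher and 3.33% lower, with 0 of them in the rRNA genes. With each library left out in turn the log2 difference stayed between 0.26 and 0.38 in segment 2 and between -0.64 and -0.48 in segment 9.

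**Figure D3:**
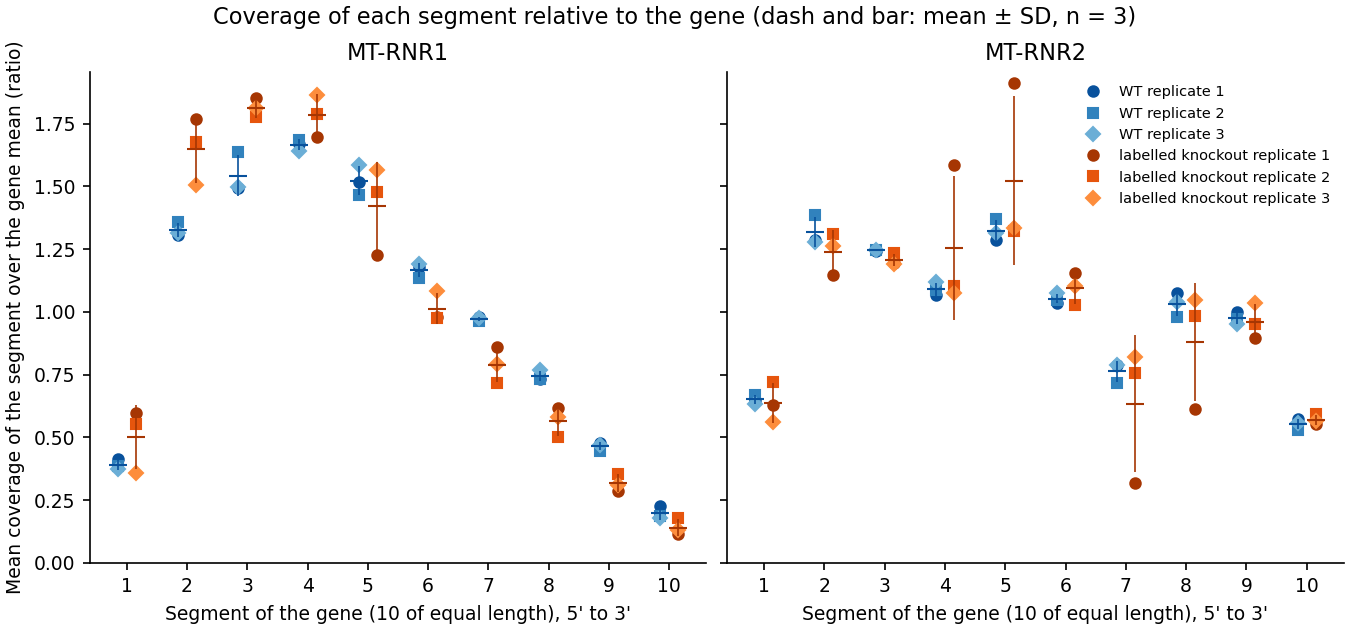
Mean coverage of each of 10 equal segments of MT-RNR1 (left) and MT-RNR2 (right) divided by the gene mean, with 1 point per library and a dash and bar for mean ± SD (n = 3 per group). In MT-RNR1 the KO points lie above WT in segments 2 to 4 and below WT in segments 6 to 10; in MT-RNR2 KO replicate 1 stands alone in segments 4, 5, 7 and 8.

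At single-base resolution the same pattern formed 2 long runs. Relative coverage of all KO libraries exceeded that of all WT libraries at each base from position 726 to 988, a run of 263 bases. It was below that of all WT libraries at each base from position 1151 to 1550, a run of 400 bases. Over the gene this came to 265 bases above and 403 below, or 27.8% and 42.2%, against 12.4% and 13.9% of the bases of the 15 genes. Between the runs, from position 993 to 1145, the groups crossed. In MT-RNR2 the same count gave 0 bases above and 57 below (3.66%), the longest run being 31 bases from position 2056.

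The slope of MT-RNR1 was also read as ratios within a library. The first 100 bases stood at 1.89, 2.17 and 2.16 times the last 100 bases in WT and at 5.45, 3.22 and 2.96 times in KO. The log2 change of this ratio was 0.90, and 0.58 without KO replicate 1. The coefficient of variation of coverage over the bases of MT-RNR1 was 0.505, 0.534 and 0.523 in WT and 0.617, 0.617 and 0.640 in KO. For both ratios the groups did not overlap, with a two-sided exact permutation p of 0.1, the smallest that 3 against 3 libraries allow, and an adjusted p of 0.4 over 8 ratios. Taken over 50 bases at each end, the log2 change of the first ratio was 0.67 with an exact permutation p of 0.3. The log2 change of the coefficient of variation was 0.26 with all libraries and 0.27 without KO replicate 1.

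The coverage midpoint, the base at which the summed coverage of a gene reaches 50% of its total, gave the size of the shift in bases. It lay at positions 1036, 1025 and 1038 of MT-RNR1 in WT and at 976, 987 and 1001 in KO. As a percent of the gene's length it was 40.5 ± 0.734 in WT and 35.7 ± 1.31 in KO. Mean coverage 5′ of the gene's centre was 1.82 ± 0.0588 times that 3′ of it in WT and 2.54 ± 0.111 times in KO. For MT-RNR2 the midpoint was at 45.1 ± 0.756% of the length in WT and at 44.5 ± 2.25% in KO, and the libraries overlapped. These measures were chosen after the profiles had been seen and are given as descriptions.

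MT-RNR1 was not alone in this direction among the long mitochondrial genes. The midpoint lay at a lower coordinate in all KO libraries than in all WT libraries in 5 of 15 genes (33.3%) and at a higher one in 0%. Besides MT-RNR1 these were MT-CO2, MT-CO3, MT-ND4 and MT-CYB. The mean shift over the 13 mRNA genes ranged from -3.94 percentage points of length in MT-ND4 to 0.673 in MT-ND4L. For MT-RNR1 it was -4.72, and -4.09 without KO replicate 1. Without KO replicate 1 the shift was -2.10 for MT-ND4 and -4.27 for MT-ATP8, the latter larger than that of MT-RNR1. In MT-ATP8 KO replicate 1 lay above WT, at 68.1%, and KO replicates 2 and 3 below it, at 62.8% and 63.3%. Whether MT-RNR1 shifted further than the mRNA genes was not tested.

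**Figure D4:**
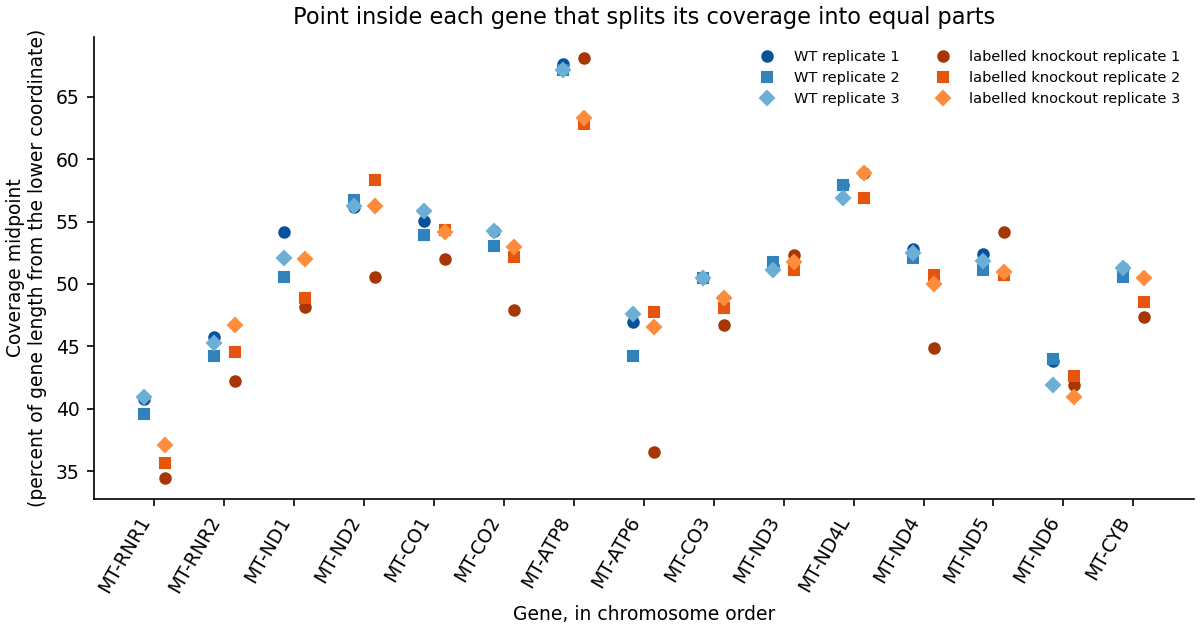
Coverage midpoint of the 2 rRNA and 13 mRNA genes as a percent of gene length from the lower coordinate, with 1 point per library. MT-RNR1 has the lowest WT midpoints, between 39.6% and 41.0%, and its KO midpoints lie between 34.5% and 37.1%.

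MT-RNR2 had another profile, with 3 lobes in each of the 5 libraries other than KO replicate 1. In the running mean of WT the crests stood at positions 1950 to 1951, 2335 to 2340 and 2877 to 2948, and the dips between them at 2202 to 2203 and 2651 to 2652. KO replicates 2 and 3 had their crests at 1949 and 1951, 2335 and 2340, and 2948 and 2946. Their dips stood at 2201 and 2200 and at 2651 and 2652. The highest base lay between positions 2339 and 2345 in all 6 libraries. Across the 1559 bases, profiles of pairs of WT libraries correlated at Pearson's r of 0.985 to 0.992, and WT with KO replicates 2 and 3 at 0.971 to 0.992. In MT-RNR1, over 954 bases, these ranges were 0.991 to 0.998 and 0.936 to 0.990. The bases of a profile share reads and sequence, so these values are descriptions.

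KO replicate 1 departed from this profile in the middle of MT-RNR2. Its middle lobe was taller relative to the gene, with segment 5 (positions 2295 to 2450) at 1.91 against 1.28 to 1.37 in the other 5 libraries. It had 4 crests, at positions 1839, 1933, 2331 and 2953, and dips at 1886, 1992 and 2718, with none near the first dip of the other libraries. Coverage was lower relative to the gene in segment 7 (positions 2606 to 2761), which stood at 0.320 against 0.715 to 0.821. The ratio of segment 5 to segment 7 was 1.63, 1.92 and 1.67 in WT and 5.98, 1.74 and 1.63 in KO. Profiles of KO replicate 1 correlated with those of the other libraries at 0.741 to 0.804 in MT-RNR2 and at 0.905 to 0.979 in MT-RNR1. In deposited units its coverage in the window of positions 2701 to 2800 was 310.2, or 1.77 times the WT mean, against 2.54 to 8.07 times in the other 14 windows.

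Once KO replicate 1 was left out, the shape of MT-RNR2 differed little between the groups. The log2 differences of its 10 segments relative to the gene then ranged from -0.037 in segment 3 to 0.062 in segment 10. With all libraries they ranged from -0.39 ± 0.36 in segment 7 to 0.18 ± 0.15 in segment 5 (limma adjusted p = 0.536 and 0.498). The coefficient of variation was 0.288, 0.323 and 0.296 in WT and 0.524, 0.287 and 0.295 in KO (exact permutation p = 0.9). The ratio of the first to the last 100 bases was 0.927 ± 0.0566 in WT and 0.898 ± 0.148 in KO (exact permutation p = 0.9). The higher level of MT-RNR2 in KO replicates 2 and 3 thus came with a WT-like profile, whereas MT-RNR1 had a higher level and a steeper profile in the same libraries.

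One base of MT-RNR2 stood out in all libraries. At position 3107 coverage was 6.68, 6.35 and 7.76 in WT and 17.2, 17.6 and 42.5 in KO. The 10 bases on each side averaged 144, 133 and 140.0 in WT and 738, 186 and 199 in KO. The base thus held 4.62%, 4.77% and 5.54% of its neighbours' coverage in WT and 2.33%, 9.45% and 21.3% in KO, with KO libraries on both sides of WT. In the revised Cambridge reference sequence this position is a placeholder that keeps the older numbering and stands for no base. Leaving it out moved the mean of the gene from 200.4 to 200.5 in WT replicate 1 and from 285.8 to 285.9 in KO replicate 3.

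Neither gene began or ended with a sharp edge in coverage. Coverage of MT-RNR1 first reached 50% of the gene's median 61, 66 and 67 bases inside the annotated start in WT and 44, 50 and 67 bases inside it in KO. For MT-RNR2 the distances were 56, 56 and 61 bases in WT and 51, 47 and 71 bases in KO. At the 3′ side MT-RNR1 fell under 50% of its median 149, 156 and 149 bases before the annotated end in WT and 190, 229 and 186 bases before it in KO, without overlap. In MT-RNR2 that point lay 60, 66 and 64 bases before the end in WT and 58, 58 and 66 bases before it in KO. Of the 4 ends, the 3′ side of MT-RNR1 was thus the one where the groups separated by this measure. The measure reads the same coverage as the 3′ segments of MT-RNR1 and is not a separate result. It was not taken in the mRNA genes, so a share over other gene ends cannot be given.

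At the annotated ends themselves, the step of coverage was taken as the log2 ratio of the 25 bases inside to the 25 bases outside. At the start of MT-RNR2 the step was 0.70, 0.94 and 0.98 in WT and 1.25, 1.38 and 0.70 in KO. The steps at the other ends were smaller, with WT means of 0.27 at the start of MT-RNR1, 0.24 at its end and 0.25 at the end of MT-RNR2. The differences between the groups were 0.090 ± 0.072 at the start and -0.057 ± 0.047 at the end of MT-RNR1, and 0.24 ± 0.20 at the start and 0.11 ± 0.12 at the end of MT-RNR2. None of the 4 passed limma over the 74 gene ends of the chromosome (adjusted p = 0.859 for each), where 0% were called. The last base of MT-RNR1 stood at 0.108 ± 0.0221 of the gene's median in WT and 0.0906 ± 0.0180 in KO, while the last base of MT-RNR2 stood at 0.256 ± 0.00419 and 0.282 ± 0.0456.

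The tRNA genes that flank the rRNAs were covered far less than the rRNAs before and between them, and more after MT-RNR2. MT-TF (positions 577 to 647), the tRNA for phenylalanine, stood at 5.59, 3.96 and 3.38 in WT and 13.9, 5.74 and 4.198 in KO. MT-TV (positions 1602 to 1670), the tRNA for valine, stood at 8.39, 5.88 and 5.24 in WT and 18.1, 8.19 and 7.79 in KO. MT-TL1 (positions 3230 to 3304), a tRNA for leucine, stood at 48.5, 48.2 and 50.8 in WT and 169, 69.6 and 91.8 in KO. Of the 3, only MT-TL1 was without overlap between the groups. The log2 differences were 0.62 ± 0.45 for MT-TF, 0.65 ± 0.45 for MT-TV and 1.05 ± 0.53 for MT-TL1 (limma adjusted p = 0.345, 0.326 and 0.301).

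Set against the rRNAs beside them, the flanking tRNA genes overlapped between the groups. MT-TF stood at 0.0692 ± 0.0184 of MT-RNR1 in WT and 0.0559 ± 0.0109 in KO (exact permutation p = 0.5). The share of MT-TV relative to the mean of both rRNA genes was 0.0496 ± 0.0126 in WT and 0.0391 ± 0.00984 in KO (exact permutation p = 0.5). MT-TL1 stood at 0.242, 0.242 and 0.254 of MT-RNR2 in WT and at 0.165, 0.269 and 0.321 in KO (exact permutation p = 0.9). In that last ratio KO replicate 1 lay below WT and KO replicates 2 and 3 above it, and its log2 change was 0.033, and 0.26 without KO replicate 1. The bases from the end of MT-RNR2 to the start of MT-ND1, the next gene, stood at 0.229, 0.252 and 0.257 of MT-ND1 in WT and at 0.335, 0.291 and 0.321 in KO. Coverage held both strands together, and precursor RNA and tRNA cannot be told apart in it.

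Between the genes, MT-RNR2 was covered more deeply than MT-RNR1 in each WT library. The ratio was 3.22, 3.21 and 3.19 in WT and 4.04, 3.04 and 3.10 in KO. KO replicate 1 lay above WT and KO replicates 2 and 3 below it (exact permutation p = 1, adjusted p = 1). The log2 change was 0.081 over all libraries and -0.064 without KO replicate 1, opposite in sign. Gene counts per base, the second readout of these libraries, gave the same order. The ratio was 3.39, 3.30 and 3.23 in WT and 4.10, 3.00 and 2.99 in KO (exact permutation p = 1).

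In gene counts MT-RNR1 stood at 436, 451 and 459 CPM in WT and at 2422, 627 and 684 CPM in KO. MT-RNR2 stood at 2419, 2432 and 2424 CPM in WT and at 16222, 3076 and 3344 CPM in KO. All KO libraries were above all WT libraries for both, with log2 fold changes of 1.47 ± 0.51 and 1.64 ± 0.63. The share of all genes that separated in this way was not counted. Neither passed edgeR over all genes (adjusted p = 0.0922 and 0.118), where 8.64% of 17452 genes were called higher. Without KO replicate 1 both were called higher, by 0.55 and 0.41 on the log2 scale, in a fit that called 22.3% of genes higher. As a share of the summed mitochondrial coverage, MT-RNR1 held 0.753%, 0.714% and 0.698% in WT and 1.45%, 1.003% and 0.950% in KO. MT-RNR2 held 3.96%, 3.75% and 3.64% in WT and 9.55%, 4.98% and 4.82% in KO. Relative to MT-ND1, MT-RNR1 stood at 0.294, 0.323 and 0.316 in WT and at 0.503, 0.356 and 0.321 in KO, where KO replicate 3 was within the WT range. MT-RNR2 stood at 0.946, 1.04 and 1.01 of MT-ND1 in WT and at 2.04, 1.08 and 0.997 in KO. There too KO replicate 3 was within the WT range. Mean coverage of MT-ND1 itself was higher in each KO library, at 212, 192 and 198 in WT and 504, 239 and 287 in KO.

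Among nuclear genes that make, cut, modify or degrade these rRNAs, 3 rose and 0 fell of 38 tested, with a median log2 fold change of -0.0088 against 0.0055 for all genes tested. By edgeR, 8.64% of all genes were called higher and 6.5% lower, so that the share of members was not above that of other genes. TFB2M, the factor that lets the mitochondrial RNA polymerase start at its promoters, was at 8.52, 8.67 and 6.92 CPM in WT and at 17.4, 15.96 and 17.3 CPM in KO. It rose by 1.07 ± 0.17 on the log2 scale (edgeR adjusted p = 0.00903). MTERF1, a DNA-binding protein whose known site lies inside MT-TL1 just after MT-RNR2, was at 14.7, 13.9 and 13.5 CPM in WT and at 32.8, 22.5 and 25.1 CPM in KO (0.93 ± 0.18, edgeR adjusted p = 0.0177). PDE12, a mitochondrial enzyme that shortens poly(A) tails, was at 87.7, 84.1 and 86.1 CPM in WT and at 163, 118 and 121 CPM in KO (0.64 ± 0.16, edgeR adjusted p = 0.0404). For all 3 genes the KO libraries lay above WT, and the share of all genes that did so was not counted. The calls of these 3 genes were lost when any 1 WT library was left out, with edgeR adjusted p from 0.0531 to 0.167.

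Members that act on 1 of the rRNAs did not pass the test over all libraries. For TFB1M, which methylates the small-subunit rRNA, the log2 fold change was -0.36 ± 0.15 (adjusted p of 0.140 by edgeR). ERAL1, which binds the small-subunit rRNA during assembly, was at -0.11 ± 0.15. On the side of the large subunit, FASTKD2 was at 0.63 ± 0.30, GTPBP10 at 0.62 ± 0.22 and DHX30 at 0.44 ± 0.16. Without KO replicate 1 these were at 0.19, 0.37 and 0.57. Some others on that side were lower. RCC1L was at -0.68 ± 0.28, MTG1 at -0.56 ± 0.31, MTG2 at -0.35 ± 0.28 and MALSU1 at -0.33 ± 0.14. Without KO replicate 1 those were at -0.40, -0.29, -0.064 and -0.27. Of the small-subunit members listed, only METTL15 was positive over all libraries, at 0.27 ± 0.21, and it was at 0.033 without KO replicate 1. RBFA, METTL17, NSUN4, YBEY and MTERF4 were negative like TFB1M and ERAL1, at -0.24, -0.21, -0.17, -0.070 and -0.036. Of these, YBEY and MTERF4 changed sign when KO replicate 1 was left out, to 0.18 and 0.21. TRMT10C, PRORP and HSD17B10, the subunits of mitochondrial RNase P, were at 0.30 ± 0.13, 0.35 ± 0.19 and -0.30 ± 0.36, and ELAC2 at -0.066 ± 0.12. Without KO replicate 1 they were at 0.28, 0.33, 0.052 and -0.0065, so that HSD17B10 changed sign. TFB1M and ERAL1 were then at -0.36 and -0.014. Without KO replicate 1, 10 members were called higher and 4 lower, in a fit that called 22.3% of all genes higher and 21.7% lower.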

How the data were processed

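Per the labels' protocols, RNA was extracted with TRIzol, selected on poly-T beads and made into libraries with a NEBNext Ultra kit. The submitters' processing notes name HISAT2 2.2.1, HTSeq 0.12.4, SAMtools 1.3.1 and bedtools 2.30.0 and GRCh38, without roles or options. The deposited gene tables hold raw counts, with totals of 14982340 to 16278091 per library. Reads in no feature (8.75% to 15.9%) and ambiguous reads (9.74% to 12.5%) were left out. The deposited coverage signal had been scaled by the authors: below a coverage of 20, 100% of values fell within 0.1 step of a whole multiple of a step of 0.0238 to 0.0270. If 1 step is 1 read, mean depth was 2306 to 10654 reads per base in MT-RNR1 and 7415 to 43085 in MT-RNR2, and the lowest base held 185 reads.

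Coverage was used as deposited, on log2 (coverage + 1), which understates changes of low values. Gene coordinates came from RefSeq on GRCh38. limma 3.58.1, with Benjamini-Hochberg adjustment at 0.05, was fitted over all 38 regions, 166 windows of 100 bp, 150 segments and 74 gene ends of the chromosome. For genes, edgeR 4.0.16 was run under R 4.3.3 (TMM, filterByExpr, quasi-likelihood F test, group as the only term) over 17452 genes. The scripts were tested on simulated data. The members, lists and tests were chosen with earlier results of these data known. Named are both rRNA genes, their neighbours, C17orf80, called pathway members (the further ones were chosen after their values were seen), and the highest, lowest and smallest-p windows and segments of each gene. Midpoints, runs, crests and the single base were chosen after the profiles were seen. No libraries were duplicates by a chi-square comparison of counts. Nuclear copies of MT-RNR2 (MTRNR2L genes) were not analysed here, as 0 of 13 were paired with an identifier.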

Additional observations from a re-analysis of the deposited data

How the results depend on the processing

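Alternatives were run for 44 results. Of 432 alternative values, 385 kept their direction and their side of the threshold, or stayed within 1.5 times for counts. The exact permutation p of the 8 coverage ratios could not fall under 0.05, so their side of the threshold was fixed in advance. Counts of 0 that stayed at 0 are also among the 385. This total is thus not a measure of stability. With libraries left out in turn, the called windows of both rRNA genes ranged from 0 to 20 (20 without KO replicate 1), and called pathway genes from 0 to 10 higher (0 without any 1 WT library, 10, 6 and 1 without KO replicates 1, 2 and 3) and from 0 to 4 lower. On leaving libraries out, log2 changes ranged from -0.064 to 0.16 for MT-RNR2 over MT-RNR1, from -0.13 to 0.083 for the first over the last bases of MT-RNR2, from -0.18 to 0.26 for MT-TL1 over MT-RNR2, from -0.055 to 0.44 for the coefficient of variation of MT-RNR2 and from -0.0044 to 0.22 for the step at the end of MT-RNR2. Each of these 5 changed sign. With 50 bases at each end the ratio of MT-RNR2 was 0.026. Gene counts of MT-RNR1 ranged from 0.55 to 1.79 and of MT-RNR2 from 0.41 to 2.01, MT-RNR1 passing without KO replicate 1 or 2 and MT-RNR2 without KO replicate 1. MT-RNR1 passed with DESeq2 1.42.0 (1.46, adjusted p = 0.0107) and both passed edgeR with no count filter (1.40 and 1.56). Scaled to the gene, the bases without overlap became 265 above and 403 below in MT-RNR1 and 0 and 57 in MT-RNR2, since this scale removes the level. The cause of the other changes was not tested.

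Replicate numbers did not pair the libraries: deviations of same-numbered libraries correlated at -0.059, -0.029 and 0.0022 across genes and at -0.059, 0.43 and -0.34 across windows. With a replicate block, 0 pathway genes were called, C17orf80 did not pass (edgeR adjusted p = 0.0829), edgeR called 610 genes higher and 359 lower, and MT-TL1 over MT-RNR2 was at -0.021. A fit of segments over the rRNA genes alone and the MTRNR2L genes are not reported.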
